A study of Rattus norvegicus with 12 samples.

Results

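Interneuron subtype markers are the genes by which the inhibitory neurons of the hippocampus are told apart. The set held 10 genes, chosen by name: the neuropeptides Sst, Vip, Npy and Cck, the calcium-binding proteins Pvalb, Calb1 and Calb2, the secreted glycoprotein Reln, the enzyme Nos1 and the transcription factor Lhx6. All 10 were found among the 17494 genes of the count table, and all 10 were among the 12325 genes with enough counts to be tested. The rule names them and uses no measured value, although they were chosen with earlier results of these data known.

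RNA from the brain, named as hippocampus in the methods of the study, was sequenced from 12 male Long Evans rats of WT genotype. All 12 had been exposed to a blast wave at 10 weeks of age, 1 exposure a day for 3 days, and all were sacrificed 29 weeks after blast. The 6 blast-boldine rats ate chow with 500 mg/kg boldine, an alkaloid of the boldo tree that blocks connexin hemichannels, from the second week after blast until sacrifice, and the 6 blast-control rats ate the same chow without it. Each library came from 1 rat, and no rat without blast exposure was analysed here, so the comparison shows boldine against no boldine after blast and says nothing of blast itself. The tissue was bulk RNA, in which fewer cells of a type and less RNA per cell cannot be told apart.

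GABA neurons synthesize GABA with the enzymes encoded by Gad1 and Gad2 and load it into vesicles with the transporter encoded by Slc32a1. Those that express Pvalb inhibit the soma and the axon initial segment of pyramidal cells and fire fast, whereas those that express Sst act on the distal dendrites. Cells with Vip act mainly on other interneurons, and Cck marks a further class of basket cells. Lhx6 is needed for the cells that arise from the medial ganglionic eminence, the embryonic source of the Pvalb and Sst classes, and Nos1 with Npy marks ivy cells and neurogliaform cells. Several of these genes are not restricted to interneurons: Calb1 is also expressed by dentate granule cells and by pyramidal cells, Cck by pyramidal cells, and Reln by Cajal-Retzius cells.

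The depth behind the values was uneven. The total of counts on genes lay between 10148474 and 40850106 in 11 libraries and was 74008 in that of blast-control rat 6. A gene was taken as detected from 3 counts. In CPM (counts divided by the TMM-normalized library size) this floor was 47.5 in rat 6 and between 0.0658 and 0.307 in the 11 others. These floors cover counting error only. Rat 6 had 0 counts of Sst, Vip, Npy, Calb2 and Lhx6, 2 counts each of Pvalb, Cck and Calb1, 3 of Nos1 and 5 of Reln. In the other rats, only Sst among the 5 genes at 0 reached a level above the floor of rat 6, with a highest value of 61.6 CPM, so an absence of these transcripts in rat 6 was not detectable at its depth. The treatment comparisons of the markers below are therefore given also without rat 6. The libraries moreover fell into 2 sets of 6, called A (rats 1, 7, 9, 20, 32 and 35) and B (rats 4, 5, 6, 12, 17 and 19), with 3 rats of each treatment in each. The library names carry suffixes from 1 to 6, each on 2 libraries. Only assignments with every suffix once in each set, and with larger suffixes on larger rat numbers inside a set, were considered. The second condition is an assumption. Of the 4 that remained, the one that best followed the first principal component of the 11 deeper libraries was used. It explained 95.1% of that component, which held 66% of the variance, and treatment explained 1.53%. No label states what the sets are.

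The tissue identity was checked with markers. The summed level of 6 markers of hippocampal principal neurons lay between 750 and 1077 CPM in the 11 deeper libraries, and Wfs1, a gene of CA1 pyramidal cells, was the most abundant of them per length (147 CPM per kilobase of exon). Gad1 lay between 164 and 259 CPM, Gad2 between 79.5 and 145 CPM and Slc32a1 between 38.5 and 52.6 CPM. Transcripts of GABA neurons were therefore present in each of these libraries.

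The promoters of the marker genes were examined for the cAMP response element, the 8-base palindrome TGACGTCA that is bound by CREB and was described early on in the promoter of Sst. RefSeq promoters of the GRCr8 build, 250 bases before to 50 bases after the start of transcription, were found for 7 of the 10 genes, and Cck, Calb1 and Calb2 had no entry. Of all 33469 promoters of this length, 1.83% held TGACGTCA, and 21.2% held TGACG on either strand, a shorter motif that every full palindrome also contains. The full palindrome occurred in Sst and Nos1, only TGACG in Vip and Pvalb, and neither in Npy, Reln and Lhx6. Nos1 also held 2 matches of TGACG outside the palindrome, and Sst held none. The nearer of these in Nos1 lies, in lower case, in the stretch shown. Stretches of 4 promoters are shown because Sst and Nos1 share the full palindrome, while in the comparison between library sets, given further on, the sets were separate for Sst and overlapped for Nos1. Capitals mark the palindrome in Sst and Nos1 and TGACG in Vip and Pvalb. Counted along the window, with 250 bases before the annotated start, the palindrome began at base 253 in Sst and 242 in Nos1. The marked TGACG began at base 154 in Vip and 10 in Pvalb. Only in Sst did the marked match thus begin past the annotated start. A match is a description of letters only. The stretches are chr11:90461492-90461595 (plus strand) for Sst, chr12:44371788-44371902 (minus strand) for Nos1, chr1:44470327-44470443 (plus strand) for Vip and chr7:111666470-111666539 (minus strand) for Pvalb.
Sst: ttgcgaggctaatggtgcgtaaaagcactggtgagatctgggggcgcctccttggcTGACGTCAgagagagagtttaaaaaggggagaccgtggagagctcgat
Nos1: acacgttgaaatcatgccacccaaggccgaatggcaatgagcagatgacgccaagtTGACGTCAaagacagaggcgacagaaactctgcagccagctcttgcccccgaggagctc
Vip: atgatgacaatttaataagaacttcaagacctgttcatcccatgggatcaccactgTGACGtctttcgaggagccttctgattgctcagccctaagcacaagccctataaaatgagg
Pvalb: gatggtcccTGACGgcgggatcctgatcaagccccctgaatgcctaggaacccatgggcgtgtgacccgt

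None of the 10 markers passed a test of the difference between blast-boldine and blast-control rats, and their estimated differences were small beside the spread between rats. In edgeR's quasi-likelihood test on all 12 rats, 0 of the 10 had an unadjusted p under 0.05, against 1.07% of the 12325 genes tested (132 genes), and the smallest adjusted p over all genes was 1. DESeq2 gave 85 genes and limma-voom 115 genes with an unadjusted p under 0.05, none of them a member, and both also gave 0 genes with an adjusted p under 0.05. Without rat 6 the count was again 0 of 10, against 1.4% of 12529 genes. A fit with library set as a second term and without rat 6 likewise gave 0 of 10, against 5.35%. The values of the 2 treatment groups overlapped for all 10 markers, with and without rat 6. Groups that did not overlap were rare over all genes too, at 0.0811% with 12 rats and 0.152% without rat 6. When the mean log2 CPM of the groups was compared by reassigning the rats (exact permutation, two-sided), the p of the 10 markers lay between 0.288 and 0.892 with 12 rats and between 0.478 and 0.95 without rat 6. The smallest p this test can give is 0.00216. The median log2 fold change of the 10 markers, boldine over control, was -0.02 with 12 rats and -0.07 without rat 6, against 0.0046 and -0.00097 for all genes tested.

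**Figure D1:**
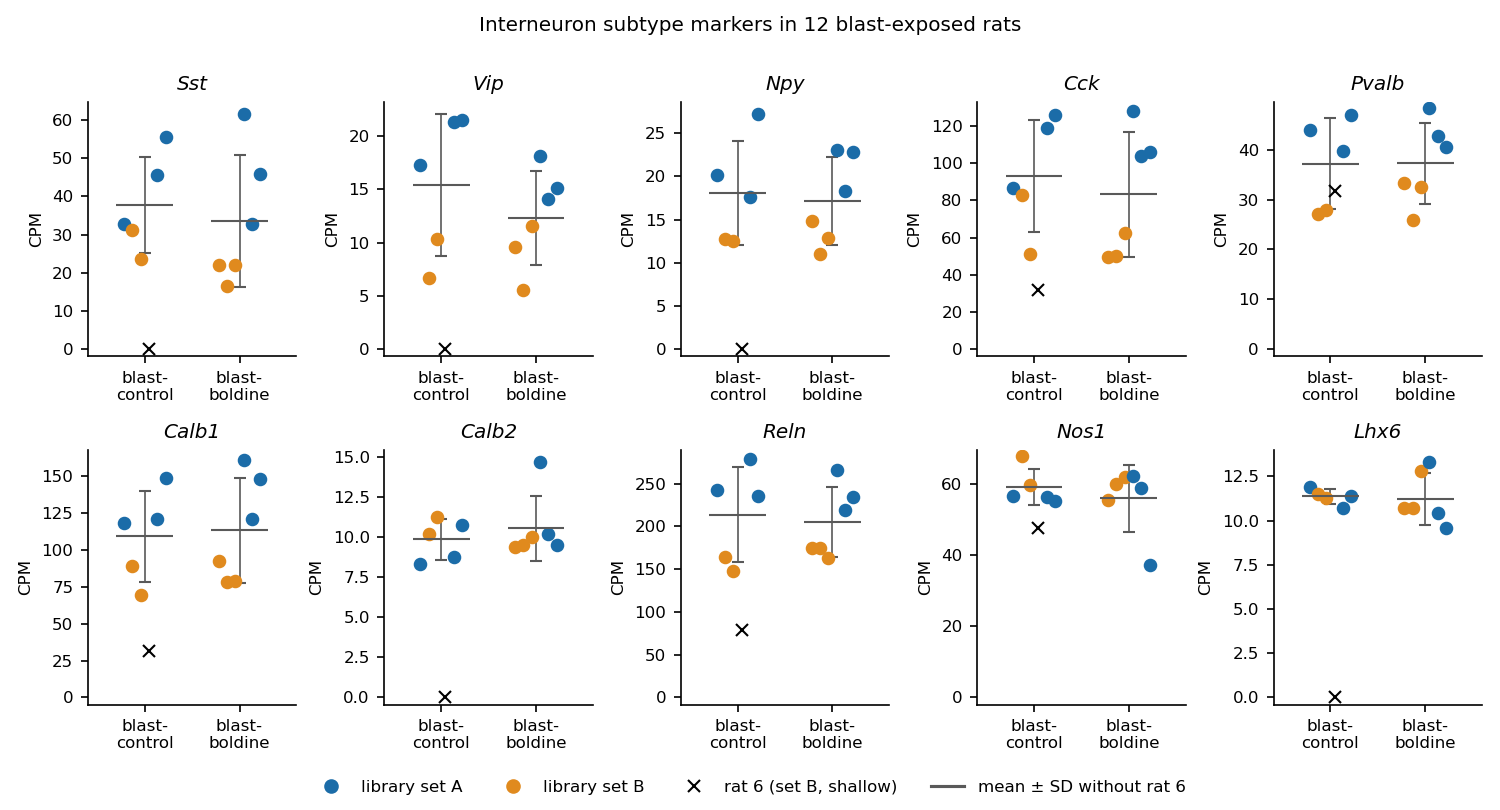
Level of each marker gene in CPM (linear axis) in blast-control and blast-boldine rats, 1 point per library, coloured by library set, with rat 6 as a cross. Grey lines give the mean ± SD of the 5 controls without rat 6 and of the 6 boldine rats. The treatment groups overlap for all 10 genes, while the colours separate for 7 of them.

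Sst, which encodes somatostatin (mRatBN7.2 chr11:76956896-76958173, plus strand), had a lowest value of 16.5, a median of 27.4 and a highest value of 61.6 CPM in blast-boldine rats. In blast-controls it was 32.8 CPM in rat 1, 31.3 in rat 4, 23.6 in rat 5, 45.6 in rat 7 and 55.5 in rat 9. Boldine rats held both the highest and the lowest value of the 11 deeper libraries, and the groups overlapped over most of their range. The log2 fold change was -0.12 ± 0.36 (SE) with 12 rats, with a 95% interval from -0.89 to 0.65. With library set as a term and without rat 6 it was -0.15 ± 0.18, with an interval from -0.54 to 0.25.

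Vip, which encodes vasoactive intestinal peptide (chr1:42065138-42073218, plus strand), had a lowest value of 5.55, a median of 12.8 and a highest value of 18.1 CPM in blast-boldine rats. The controls measured 17.3 CPM in rat 1, 6.71 in rat 4, 10.4 in rat 5, 21.3 in rat 7 and 21.5 in rat 9. The 2 highest values were those of controls and the lowest that of a boldine rat, with overlap between. With 12 rats Vip had the largest estimate of the 10 in either direction, -0.30 ± 0.34, and its interval, from -1.03 to 0.44, still included 0. Without rat 6 Vip had an estimate of -0.33 ± 0.34. Its mean was 12.3 ± 4.41 CPM (SD, n = 6) with boldine and 15.4 ± 6.62 CPM (n = 5) without, and the exact permutation test over these 11 rats gave p = 0.481. With rats reassigned only within their library set the exact permutation p was 0.245. That test still compared the means of all rats in each group. Set B without rat 6 held 3 boldine and 2 control rats, so part of the difference between sets remained in this p.

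Npy, which encodes neuropeptide Y (chr4:78881294-78888493, plus strand), lay between 11 and 23 CPM with boldine, with a median of 16.5. In the 5 deeper controls it lay between 12.5 and 27.2 CPM, with a median of 17.6. Cck, the gene of cholecystokinin (chr8:121153500-121160084, minus strand), lay between 49.5 and 128 CPM with boldine and between 51.4 and 126 CPM in these controls. The ranges of the treatment groups were nearly the same for both peptides. With 12 rats the log2 fold change was -0.04 ± 0.27 for Npy and -0.10 ± 0.30 for Cck. Without rat 6 it was -0.08 ± 0.25 for Npy and -0.17 ± 0.30 for Cck.

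Pvalb, which encodes parvalbumin, a calcium buffer of fast-spiking cells (chr7:109773302-109785771, minus strand), had a lowest value of 25.9, a median of 37 and a highest value of 48.4 CPM with boldine. In controls it was 43.9 CPM in rat 1, 27.2 in rat 4, 28 in rat 5, 39.8 in rat 7 and 47 in rat 9, and 31.7 CPM in rat 6 from its 2 counts. The mean was 37.2 CPM in both groups without rat 6, with an SD of 8.15 (n = 6) for boldine and 9.14 (n = 5) for controls. The log2 fold change was 0.01 ± 0.19, with an interval from -0.41 to 0.43.

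Calb1, the gene of calbindin (chr5:29375659-29400053, plus strand), lay between 78.5 and 161 CPM with boldine, with a median of 107, and between 69.1 and 149 CPM in the 5 deeper controls, with a median of 118. Its log2 fold change was 0.12 ± 0.26. Calb2, the gene of calretinin (chr19:38114435-38141438, minus strand), had a lowest value of 9.42, a median of 9.76 and a highest value of 14.7 CPM with boldine. In controls it was 8.32 CPM in rat 1, 10.2 in rat 4, 11.3 in rat 5, 8.8 in rat 7 and 10.8 in rat 9. All boldine rats but rat 20 fell inside the range of the controls. The log2 fold change of Calb2 was 0.13 ± 0.18, with an interval from -0.27 to 0.52.

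Reln, which encodes reelin (chr4:12736299-13162814, plus strand), lay between 163 and 266 CPM with boldine, with a median of 197, and between 148 and 279 CPM in the 5 deeper controls, with a median of 235. Its log2 fold change was 0.04 ± 0.23 with 12 rats, -0.06 ± 0.19 without rat 6 and 0.01 ± 0.08 with library set as a term and without rat 6. The sign thus turned with the fit, within the error of each estimate. Of the 10 markers Reln had the narrowest interval in that last fit, from -0.16 to 0.18.

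Nos1, which encodes neuronal nitric oxide synthase (chr12:38626714-38710945, minus strand), had a lowest value of 37.3, a median of 59.4 and a highest value of 62.2 CPM with boldine. The controls measured 56.7 CPM in rat 1, 67.9 in rat 4, 59.6 in rat 5, 56.2 in rat 7 and 55.2 in rat 9. Boldine rat 35 lay apart below all others of the 11, and the remaining 5 boldine rats lay inside the range of the controls. The log2 fold change was -0.07 ± 0.14, and -0.08 ± 0.14 without rat 6.

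Lhx6 (chr3:19432464-19456017, minus strand) had the lowest level of the 10 per length and the smallest spread. It lay between 9.55 and 13.3 CPM with boldine, with a median of 10.7. In controls it was 11.9 CPM in rat 1, 11.5 in rat 4, 11.3 in rat 5, 10.7 in rat 7 and 11.4 in rat 9. The controls all lay inside the range of the boldine rats. The log2 fold change was 0.01 ± 0.16 with 12 rats and -0.02 ± 0.11 with library set as a term and without rat 6.

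**Figure D2:**
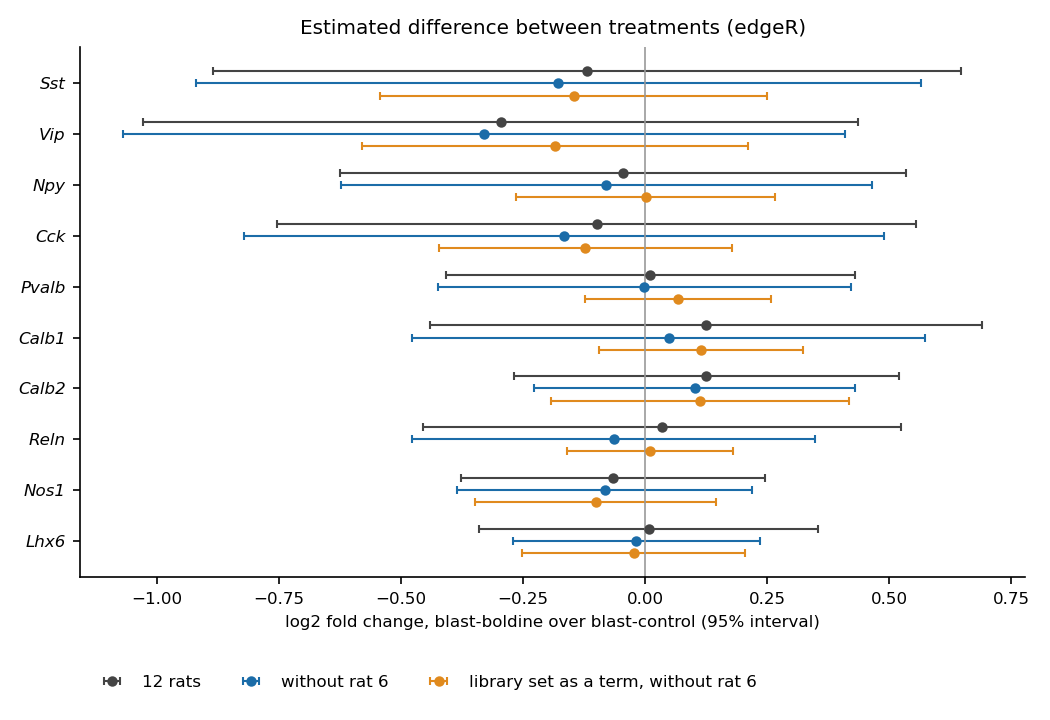
Log2 fold change of each marker gene, blast-boldine over blast-control, with its 95% interval in 3 edgeR fits: all 12 rats, without rat 6, and with library set as a term and without rat 6. Every interval includes 0, and those with library set as a term are the narrowest.

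The size of a difference that these data would have left visible depended on the fit. With 12 rats the 95% intervals had a median width of 1.06 on the log2 scale, and those of 5 of the 10 markers (Pvalb, Calb2, Reln, Nos1 and Lhx6) lay within a 1.5-fold change either way. With library set as a term and without rat 6 the median width was 0.512, and the intervals of all 10 lay within a 1.5-fold change. The widest of these was that of Sst (from 0.687-fold to 1.19-fold), followed by that of Vip (from 0.669-fold to 1.16-fold). The sets were assigned with the help of these same libraries, which can make the residual spread, and so these intervals, too narrow.

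The same comparison was made relative to the other transcripts of GABA neurons, as log2 CPM of each marker minus the mean log2 CPM of Gad1, Gad2 and Slc32a1. Without rat 6 the difference between boldine and control ranged from -0.30 for Vip to 0.07 for Calb2. Relative Sst was lower by 0.28 with boldine on average, with an exact permutation p of 0.452 over all rats and 0.145 within library sets. The latter was the smallest p of the 10 markers on this scale. That test still compared the means of all rats in each group. Set B without rat 6 held 3 boldine and 2 control rats, so part of the difference between sets remained in this p. The reference genes themselves had log2 fold changes of 0.05 ± 0.14 (Gad1), 0.11 ± 0.17 (Gad2) and -0.13 ± 0.11 (Slc32a1) without rat 6, with unadjusted p of 0.743, 0.515 and 0.266 in edgeR.

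Whether the difference between treatments itself depended on the library set was tested with an interaction term in edgeR, without rat 6. An unadjusted p under 0.05 was found for 0 of the 10 markers, against 5.64% of 12529 genes. Calb2 had the smallest p, 0.114. On the log2 scale its boldine and control rats differed by 0.29 in set A (3 against 3 rats) and by -0.15 in set B (3 against 2). Sst differed by 0.05 in set A and -0.44 in set B, and Vip by -0.35 in set A and 0.03 in set B, with interaction p of 0.2 and 0.26 in edgeR.

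Among themselves the markers differed widely in level. Per kilobase of exon, and as the mean of the 11 deeper libraries, the level was 125 CPM for Cck, 69.2 for Pvalb, 65.4 for Calb1, 53.9 for Sst, 31.1 for Npy, 18.2 for Reln, 12.5 for Nos1, 9.17 for Vip, 7.13 for Calb2 and 3.31 for Lhx6. Neighbours in this order had overlapping ranges over rats, except Calb2 and Lhx6. Within rats the order was firmer: Cck exceeded Pvalb, Calb1 exceeded Sst, Sst exceeded Npy and Npy exceeded Reln in all 11 rats. Pvalb exceeded Calb1 in 8 of 11, Reln exceeded Nos1 in 9 of 11, Nos1 exceeded Vip in 8 of 11 and Vip exceeded Calb2 in 7 of 11, so these 4 neighbours did not keep 1 order. Cck and Calb1 are also expressed by principal neurons, and the share of those cells in these levels was not measured.

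**Figure D3:**
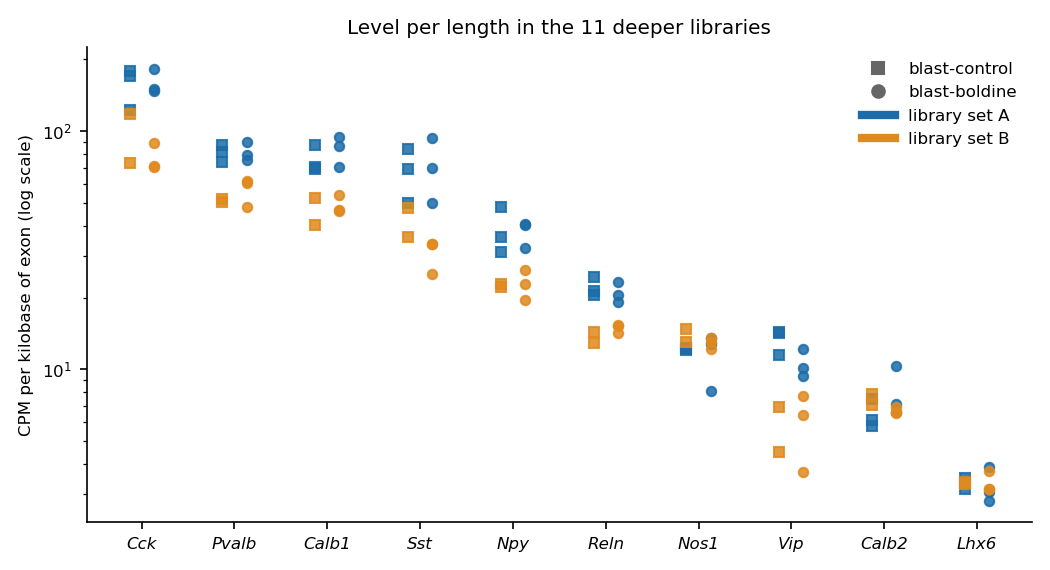
Level of each marker gene per kilobase of exon (CPM, logarithmic axis) in the 11 deeper libraries, with squares for blast-controls, circles for blast-boldine and colour for library set. The order runs from Cck (mean 125) to Lhx6 (mean 3.31), and only the ranges of the neighbours Calb2 and Lhx6 are separate.

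The markers also differed in how much they varied between rats. The coefficient of variation over the 11 rats was 41.8% for Sst, 39.8% for Vip, 35.2% for Cck, 30% for Npy and 28.7% for Calb1, but 16.7% for Calb2, 13.3% for Nos1 and 9.38% for Lhx6, with 21.9% for Pvalb and 21.8% for Reln. The peptide genes were thus the most variable and the transcription factor the least. Boldine rat 20 had the highest value of the 6 boldine rats for all 10 markers, whereas it was the highest for 23.4% of the 12325 genes tested. Control rat 9 was the highest of the 5 deeper controls for 6 of the 10 markers, against 24.7% of genes. Rat 17 was the lowest of the boldine rats for 5 markers, against 24.9% of genes, and rat 5 the lowest of the deeper controls for 5, against 34.7%. Of these rats, 20 and 9 are in library set A and 17 and 5 in set B. Most markers were higher in set A, as given below, and the shares over all genes were not split by set. Rats 20 and 9 also had the highest summed level of 8 GABA identity genes in their groups, 985 and 995 CPM. The summed level of 5 choroid plexus markers was 23.1 CPM in rat 20 and 12.9 CPM in rat 9. It was also low in rats 4 (15.1 CPM), 5 (14.4 CPM), 19 (8.54 CPM) and 35 (50 CPM). In rats 1, 7, 12, 17 and 32 it lay between 659 and 1200 CPM. Low sums thus occurred both in rats with high and in rats with low marker levels. The part of this tissue in the marker levels was not tested.

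Much of that variation ran with the library set, which was balanced over treatment. The SD of log2 CPM over the 11 rats was 0.328 for Pvalb, 0.319 for Reln, 0.609 for Sst and 0.133 for Lhx6. Once the mean of each treatment within each set was removed, it was 0.143, 0.115 and 0.361, but 0.156 for Lhx6. That step removes differences between treatments along with those between sets, and the part of the set alone was not computed. For 7 of the 10 markers every rat of set A exceeded every rat of set B without rat 6, against 24.2% of the 12325 genes that were separate in this direction and 49.1% that were separate in either direction. Because the sets were assigned from these libraries, the difference is described here with no test. Pvalb lay between 39.8 and 48.4 CPM in set A and between 25.9 and 33.3 in set B. Sst lay between 32.7 and 61.6 CPM in set A and between 16.5 and 31.3 in set B. Vip lay between 14.1 and 21.5 CPM in set A and between 5.55 and 11.6 in set B. The ranges in sets A and B were separate in the same way for Npy, Cck, Reln and Calb1.

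As fitted folds of set A over set B, Vip was 1.96, Sst 1.95, Cck 1.86, Calb1 1.67, Npy 1.65, Pvalb 1.48 and Reln 1.48. The other 3 markers had overlapping ranges, with folds of 1.03 for Calb2, 0.976 for Lhx6 and 0.88 for Nos1. Sst and Nos1, whose promoters share the full palindrome shown above, differed in this respect, and any part of the motif in it was not tested. Lhx6, expressed in the cells that also make Pvalb and Sst, was at 11.2 ± 1.28 CPM (SD, n = 6) in set A and 11.4 ± 0.849 CPM (n = 5) in set B, while Pvalb was at 43.7 ± 3.42 and 29.4 ± 3.34 CPM and Sst at 45.7 ± 11.7 and 23.1 ± 5.33 CPM.

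Over all genes, the difference between the sets ran with the exonic length of the gene. The median log2 fold change of set B over set A was -0.29 for genes shorter than 1000 bases and 0.47 for genes of 8000 bases or more. Of the short genes 32.9% were separate and lower in set B, and of the long genes 6.11%. Pvalb, Npy, Sst and Cck have exonic lengths between 538 and 702 bases and lay below the median of their length class, from -0.57 for Pvalb to -0.96 for Sst. Vip (1500 bases, -0.97) and Calb1 (1706 bases, -0.74) also lay below that of theirs, -0.13, and Calb2 (1438 bases, -0.04) above it. Lhx6 (3409 bases, 0.04) and Nos1 (4594 bases, 0.18) lay near the medians of their classes, 0.01 and 0.23. Reln, with 11462 bases among the longest genes, was lower in set B by a log2 fold change of -0.57, against the class median of 0.47.

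**Figure D4:**
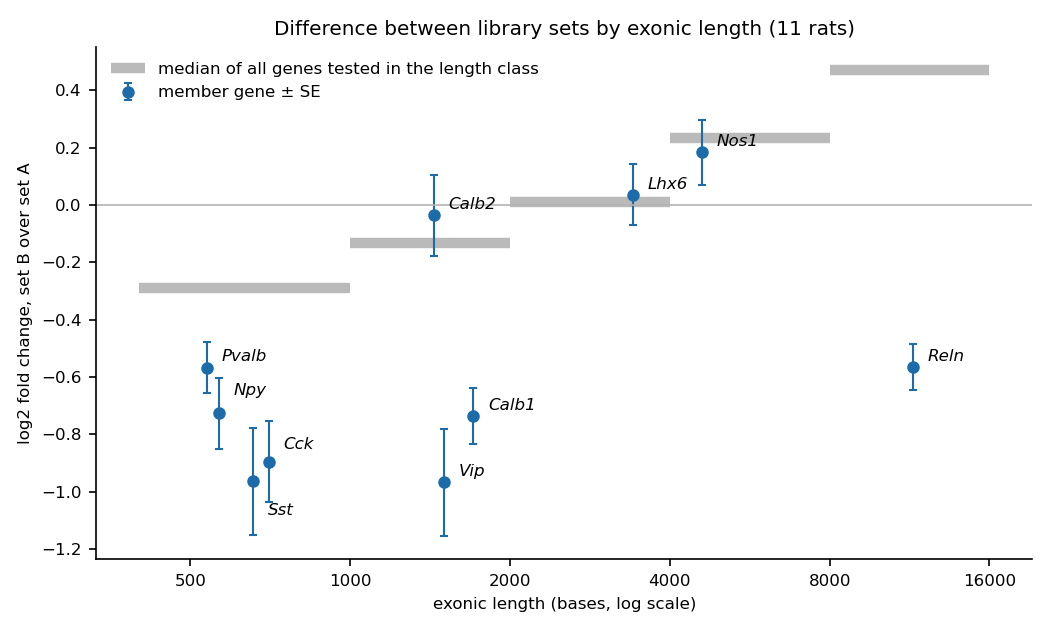
Log2 fold change of library set B over set A (edgeR, 11 rats, ± SE) of each marker gene against its exonic length in bases (logarithmic axis), with grey bars for the median of all genes tested in 5 length classes. The medians run from -0.29 for short to 0.47 for long genes, and Reln lies at -0.57 among the longest.

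Markers of cell groups other than the subtypes moved with the sets as well. The summed level of 8 GABA identity genes was 882 ± 99 CPM (SD, n = 6) in set A and 627 ± 44.3 CPM (n = 5) in set B, that of 3 general neuron genes 1953 ± 275 and 2479 ± 86.5 CPM, and that of 4 thalamus and habenula markers 26.4 ± 4.38 and 58.7 ± 6.73 CPM. The genes within each list did not move together. Of the 8 GABA identity genes 5 had a positive log2 fold change of set B over set A (edgeR, 12 rats), although their sum was lower in set B. Rbfox3 (1.07) and Syt1 (1.48) were positive and Snap25 (-0.21) was not, and Tcf7l2 (1.85) and Lef1 (2.79) were positive while Prkcd, also of the thalamus list, was at -0.40. Their part in the marker levels was not tested. The size of the difference between sets depended on the reference, and its direction did for Nos1. Relative to Gad1, Gad2 and Slc32a1, set B minus set A was -1.08 for Vip, -0.96 for Cck and -0.61 for Pvalb on the log2 scale, but -0.06 for Calb2, -0.01 for Lhx6 and 0.14 for Nos1. Relative to the general neuron genes Rbfox3, Syt1 and Snap25, all 10 markers were lower in set B, from -0.42 for Nos1 to -1.65 for Vip.

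The other genes of interneuron identity were counted in lists of GABA identity, of the medial and caudal ganglionic eminence lineages, and of parvalbumin, somatostatin, VIP and CCK, and neurogliaform and ivy cells. Of the 43 tested genes of these 7 lists, 0 had an unadjusted p under 0.05 in edgeR with 12 rats or without rat 6. Their median log2 fold change was -0.02 and -0.03 in these fits. In the fit with library set and without rat 6, 4 of the 43 had an unadjusted p under 0.05, against 5.35% of all genes. The median in this fit was -0.04, against -0.0082 for all genes. All 4 were lower with boldine, and over all genes 443 of the 670 with such a p were lower too. None of the 4 passed adjustment, and each had an adjusted p of 0.898.

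These 4 were Crh, Satb1, Kcnc1 and Cxcl14. Crh, the gene of corticotropin-releasing hormone, which some interneurons make, was at 1.14 ± 0.538 CPM (SD, n = 6) with boldine and 1.91 ± 0.863 CPM (n = 5) in the deeper controls, a log2 fold change of -0.85 ± 0.27 (SE) in the fit with library set. Its ranges, 0.586 to 2 CPM and 1.19 to 3.38 CPM, overlapped. Satb1, a chromatin organizer of the Sst and Pvalb lineage, was at 121 ± 43.3 and 140 ± 38.2 CPM, with -0.34 ± 0.14. Kcnc1, a Kv3 potassium channel of fast-spiking cells, had -0.19 ± 0.08, and the chemokine gene Cxcl14 -0.27 ± 0.12. In the fit of all 12 rats the same genes had log2 fold changes from -0.72 for Crh to -0.08 for Kcnc1, with unadjusted p of 0.0635 and 0.718.

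Satb1 was also the most abundant gene per length of the medial ganglionic eminence list. The most abundant genes of 5 other lists had no unadjusted p under 0.05 in any of the 3 fits. They were Prox1 for the caudal lineage (34.0 CPM per kilobase, a gene also of dentate granule cells), Ppargc1a for parvalbumin cells (28.5), Elfn1 for somatostatin cells (7.75), the cannabinoid receptor gene Cnr1 for VIP and CCK cells (66.2) and Id2 for neurogliaform and ivy cells (98.0). In the fit with library set and without rat 6 their log2 fold changes ran from -0.23 ± 0.14 for Elfn1 to 0.16 ± 0.12 for Cnr1.

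Receptors and signalling partners of the members were a further list of 16 tested genes. With 12 rats and without rat 6, 0 of them had an unadjusted p under 0.05 in edgeR. Adding library set and leaving out rat 6 gave 3 of the 16, against 5.35% of all genes, again with an adjusted p of 0.898. Npy5r, a receptor for neuropeptide Y, was higher with boldine by a log2 fold change of 0.39 ± 0.12. Cckbr, the main cholecystokinin receptor of the brain, had -0.41 ± 0.17 and Sstr2, a somatostatin receptor, -0.21 ± 0.09. Sstr2 was at 16.2 ± 2.04 CPM (SD, n = 6) with boldine and 19 ± 2.01 CPM (n = 5) in controls. The levels of the peptides that bind these receptors had log2 fold changes of 0.0014 (Npy), -0.12 (Cck) and -0.15 (Sst) in the same fit. Dab1, an adaptor of reelin signalling, was the most abundant of the list per length (49.6) and had -0.06 ± 0.09.

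Markers of other cells and regions were examined in the same way. Of the Cajal-Retzius markers, Tp73 was at 6.01 CPM on average with boldine and 5.1 CPM in controls, and Lhx1, Lhx5 and Ebf3 were under the filter, with at most 0.427 CPM on average in a group. The 4 summed to between 3.07 and 10.4 CPM, against at least 148 CPM of Reln, and their part in the level of Reln was not tested. With 12 rats no gene of the lists of principal neurons, neurons, Cajal-Retzius cells, thalamus and habenula, striatum, neocortical layers and choroid plexus had an unadjusted p under 0.05 in edgeR. With library set as a term and without rat 6, the neocortical gene Tbr1 (-0.45 ± 0.14) and Wfs1 (-0.28 ± 0.09) were among those that did, with an adjusted p of 0.898. The summed level of 5 markers of neocortical layers was 177 ± 37.4 CPM (SD, n = 6) with boldine and 209 ± 27.4 CPM (n = 5) in controls, between 143 and 242 and between 163 and 236. Striatal markers summed to 34.4 ± 4.37 and 40.1 ± 12.2 CPM. The part of neighbouring tissue in the levels of the interneuron genes was not tested. The most abundant genes of these lists per length, beside Wfs1, were Snap25 (490), Ttr (493), Rorb (17.8), Lef1 (6.48), Rgs9 (4.48) and Tp73 (1.18), with log2 fold changes in that fit of -0.13 ± 0.12, 1.23 ± 1.91, -0.05 ± 0.09, -0.02 ± 0.24, -0.0029 ± 0.17 and 0.13 ± 0.28.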

How the data were processed

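Total RNA of 12 rats was depleted of ribosomal RNA and made into stranded libraries, 1 per rat. Per the methods of the authors, HTStream removed PCR duplicates and trimmed the reads, STAR 2.7.11b placed them on mRatBN7.2, and featureCounts (Subread 2.0.1) assigned them by strand to the exons of RefSeq genes. The deposited values are these counts, whole numbers without normalization. The labels gave the treatment of each rat, and the methods of the study gave dose and times.

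Here, edgeR 4.0.16 (R 4.3.3) was used for a quasi-likelihood test on the counts (TMM normalization, filterByExpr with a minimum of 10 counts, treatment as the only term, two-sided, Benjamini-Hochberg over all genes tested). Intervals are 95% intervals of the coefficient. CPM were scaled after TMM, with a prior count of 2 for log2 CPM. For single genes, exact permutation tests (two-sided) reassigned rats over both groups, or only within library sets, for which the smallest possible p is 0.00216 and 0.005. Both compared the means of all rats in each group. Lengths are the exonic lengths of the count table. Library sets were assigned as described with the depth. Alternatives were DESeq2 1.42.0, limma-voom (limma 3.58.1), RLE and upper-quartile size factors, no filter, at least 10 counts in every library, library set as a covariate, 1 surrogate variable (sva 3.50.0), prior counts of 0.5 and 5, general neuron genes as the reference, leaving out each rat, and library set or DESeq2 combined with leaving out rat 6. The edgeR, DESeq2 and limma-voom fits were tested on simulated data. The study used DESeq2.

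The members and the gene lists were chosen with earlier results of these data known. All 10 members are named, and from each list the genes with an unadjusted p under 0.05 in the fit of 12 rats, without rat 6, or with library set and without rat 6, and the most abundant gene per length. The listed genes Dlx6, Acan, Ndnf, Lrp8, Dsp and Tac2 were not analysed here, and some genes that this rule selects are not reported here. Permutations were run in Python 3.11.15 (numpy 2.4.6, pandas 2.3.3) and figures drawn with matplotlib 3.10.9.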

Additional observations from a re-analysis of the deposited data

Results flagged for a closer look

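In 4 cases the highest or lowest rat of a group lay further from the next than a test for outliers allows (Dixon's test at the 95% level, for groups of 4 to 10 rats). Chance flags about 1 in 20 groups, and 30 were tested. Calb2 in blast-boldine rats was highest in rat 20, at 14.7 CPM, with the next at 10.2 CPM. Nos1 in blast-boldine rats was lowest in rat 35, at 37.3 CPM from 750 counts, with the next at 55.4 CPM. In blast-controls, Calb2 and Lhx6 were lowest in rat 6, at 0 CPM from 0 counts each, with the next at 8.32 and 10.7 CPM, and the floor of 3 counts in rat 6 was 47.5 CPM. The causes were not tested.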

How the results depend on the processing

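No marker had an unadjusted p under 0.05 in any of 23 fits, the smallest being 0.162 for Vip without control rat 4. Vip stayed below 0, and Calb1 and Calb2 above 0, in each fit, but leaving out 1 rat moved their size: Vip (-0.30) ran from -0.48 without control rat 4 to -0.15 without control rat 7 or 9 or boldine rat 17, Calb1 (0.12) from 0.0069 without boldine rat 20 to 0.27 without control rat 9, and Calb2 (0.13) from 0.0084 without boldine rat 20 to 0.18 without control rat 5. In other fits, estimates near 0 changed sign, and the cause was not tested. Pvalb (0.01) was -0.0061 with RLE, -0.011 with upper-quartile size factors and -0.0074 with DESeq2. Npy (-0.04) was 0.015 with library set as a covariate, 0.0014 with library set and no rat 6, and 0.005 with DESeq2, library set and no rat 6. Reln (0.04) was -0.021 with limma-voom, -0.011 with 1 surrogate variable and -0.06 with DESeq2 and no rat 6. Lhx6 (0.01) was -0.011 with RLE, -0.013 with upper-quartile factors, -0.025 with DESeq2, -0.014 with limma-voom, -0.0082 with library set, -0.023 with library set and no rat 6, -0.018 with DESeq2 and no rat 6, and -0.021 with DESeq2, library set and no rat 6. Leaving out 1 rat gave ranges of -0.08 to 0.1 for Pvalb, -0.38 to 0.06 for Sst, -0.14 to 0.15 for Npy, -0.26 to 0.036 for Cck, -0.06 to 0.16 for Reln, -0.09 to 0.033 for Nos1 and -0.044 to 0.05 for Lhx6.

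The number of genes with an unadjusted p under 0.05 (132) was 254 with no filter, 85 with DESeq2, 474 with library set, 206 with 1 surrogate variable, 5 with at least 10 counts in every library (1729 genes tested), 670 with library set and no rat 6, 279 with DESeq2 and no rat 6, and 736 with DESeq2, library set and no rat 6. Leaving out 1 rat gave 85 (boldine rats 12 and 17) to 214 (control rat 5), with 87 without control rat 1. The number of list genes (0) was 1 with RLE, upper-quartile factors or 1 surrogate variable, 4 with library set, 7 with library set and no rat 6, 8 with DESeq2, library set and no rat 6, and 0 to 1 on leaving out 1 rat.

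With rat 6, whose counts were 0 for 5 markers, differences in mean log2 CPM were 1.11 (Sst), 0.87 (Vip), 1.13 (Npy), 0.05 (Cck), 0.19 (Reln) and 1.07 (Lhx6). Without it they were -0.26, -0.28, -0.07, -0.19, -0.04 and -0.023. Reassigning rats only within library sets left these values as they were, since it used the same difference between the means of all rats in each group. Calb2 moved from 1.15 to 0.09 and Calb1 from 0.33 to 0.043. Relative to Gad1, Gad2 and Slc32a1, leaving out rat 6 turned Sst from 0.52 to -0.28, Vip from 0.28 to -0.3, Npy from 0.54 to -0.09, Calb1 from -0.26 to 0.024 and Lhx6 from 0.48 to -0.042. With general neuron genes as the reference and 12 rats, Pvalb turned from -0.55 to 0.2, Cck from -0.54 to 0.21, Reln from -0.4 to 0.35, Calb1 from -0.26 to 0.49 and Nos1 from -0.64 to 0.12. No paired analysis was possible because the rat numbers of the groups are not shared. The depth of rat 6 limits its values: no marker but Reln (5 counts) and Nos1 (3 counts) reached its floor.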
